A study of Mus musculus with 401 samples.

Results

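In the ovary, 8 genes of the cholesterol pathway were followed through oocytes and cumulus cells. They were the synthesis enzymes Hmgcs1, Mvd, Fdps, Sqle, Lss, Cyp51 and Dhcr7 and the transcription factor gene Srebf2, chosen by name as 8 of the 43633 genes in the count tables. Cholesterol is built from acetyl-CoA through the mevalonate pathway to isoprenoids, then through squalene and lanosterol to the sterol end product. When sterols in the endoplasmic reticulum are low, SCAP escorts the SREBP-2 protein encoded by Srebf2 to the Golgi, where it is cleaved into a factor that switches on the genes of synthesis and of lipoprotein uptake. INSIG proteins hold the complex back when sterols are plentiful. In the ovary, cumulus cells, the somatic cells around the oocyte, are known to make sterols that reach the oocyte, which is described as poor in parts of this pathway.

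The libraries were made with RamDA-seq, a method that copies total RNA along its whole length, from single germinal vesicle oocytes and from the pooled cumulus cells of the same complex, all from fully grown follicles of B6D2F1 (C57BL/6 x DBA/2) females. The first set held Young mice of 2 months, Middle mice of 9 months and Old mice of 14 months, all fed ad libitum (AL), and calorie-restricted (CR) mice of 9 months. The second set held AL mice of 2, 4, 9 and 14 months (2mo, 4mo, 9mo, 14mo) and mice of 2 months that had no hyperovulation (2moNoH). Every other group had been hormonally stimulated before the ovaries were taken. A mouse label was the replicate. There were 2 Young labels, 4 Middle, 2 Old, 3 CR, 5 at 2mo, 8 at 4mo, 4 at 9mo, 5 at 14mo and 8 of 2moNoH. The label Old1_2 joined 2 mice. Several complexes came from each mouse, and the titles of the second set placed each mouse on plate B1 or B2.

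After 1 complex of Middle3 was left out, because its oocyte library resembled cumulus libraries more than oocyte libraries, 200 oocyte and 199 cumulus libraries remained. Total counts ranged from 559305 to 4536690 in oocyte libraries and from 510029 to 2501005 in cumulus libraries. The labelled cell types matched their markers. The summed level of 12 oocyte markers, such as Zp3 and Gdf9, had a median of 17196 to 23228 CPM (counts scaled to library size) over the oocyte groups and 2.25 to 6.86 CPM over the cumulus groups. The summed level of 10 cumulus markers, such as Fshr and Foxl2, had a median of 5737 to 10561 CPM in cumulus groups and 82.3 to 394 CPM in oocyte groups. In such pools, fewer cells of a type and less RNA per cell cannot be told apart.

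Hmgcs1, which makes HMG-CoA, lies at chr13:119690379-119708260 on the plus strand of GRCm38. Mvd, the last enzyme of the mevalonate steps, lies at chr8:122433601-122443422 on the minus strand, and Fdps, which makes farnesyl diphosphate, at chr3:89093588-89101959 on the minus strand. Sqle, which oxidizes squalene at a rate-limiting step, lies at chr15:59315077-59331192 on the plus strand, and Lss, which closes the rings of lanosterol, at chr10:76531588-76557138 on the plus strand. Cyp51, the lanosterol demethylase, lies at chr5:4081145-4104746 on the minus strand, and Dhcr7, which reduces 7-dehydrocholesterol to cholesterol, at chr7:143823145-143848410 on the plus strand. Srebf2 lies at chr15:82147181-82205379 on the plus strand and holds the microRNA gene Mir33. Antisense genes overlap Hmgcs1 (Gm48342) and Lss (4930483K19Rik), Gm20388 overlaps Mvd, Gm43738 and Gm22935 overlap Fdps, Akap9 overlaps Cyp51 from the opposite strand, and Gm49502 overlaps Srebf2. Whether the counting used strand was not stated, so reads could not be assigned with certainty where genes overlap. Reads that mapped to several places were shared between genes, and 93.0% of the counts of Fdps were not whole numbers, against 0.251% for Mvd.

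The letters around the start sites are shown because these genes moved together in cumulus cells, as described further on. Whether these letters had a part in that was not tested. RefSeq start sites on GRCm38.p6 gave windows of 300 bases, 250 before and 50 after the start, for 6 of the 8 genes (8 windows, 3 of them for Dhcr7). Fdps and Sqle were not matched. The classical sterol regulatory element, searched as TCACNCCAC on both strands, was found in the window of Hmgcs1 and in none of the other 7 windows, against 1.24% of all 32851 windows. Variants of this string were not searched. A window without an exact match is thus not shown to lack a sterol element. CCAAT is the box bound by NF-Y. This box or its reverse complement was found in at least 1 window of 6 of the 6 genes, against 41.1% of all 27025 genes. By window, it was found in 6 of the 8 against 37.4% of all windows. GGGCGG, the GC box, or its reverse complement stood in 7 of the 8 windows against 35.7% of all. The windows of Hmgcs1 (chr13:119690101-119690400, plus strand), Srebf2 (chr15:82147019-82147318, plus strand) and Cyp51 (chr5:4104648-4104947, minus strand) are printed in the direction of the gene. Capitals mark the sterol element TCACCCCAC, and CCAAT or its reverse complement ATTGG. Hmgcs1 carried the sterol element and 4 CCAAT boxes, and Srebf2 and Cyp51 a single CCAAT box each. Cyp51 was picked for printing after its values were seen, because it had the widest gap between the cell types.
Hmgcs1: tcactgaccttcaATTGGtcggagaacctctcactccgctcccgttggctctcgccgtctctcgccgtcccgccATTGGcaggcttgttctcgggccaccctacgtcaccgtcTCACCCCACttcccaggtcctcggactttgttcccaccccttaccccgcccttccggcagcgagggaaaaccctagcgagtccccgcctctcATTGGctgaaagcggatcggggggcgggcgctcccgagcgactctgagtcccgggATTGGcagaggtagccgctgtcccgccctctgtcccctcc
Srebf2: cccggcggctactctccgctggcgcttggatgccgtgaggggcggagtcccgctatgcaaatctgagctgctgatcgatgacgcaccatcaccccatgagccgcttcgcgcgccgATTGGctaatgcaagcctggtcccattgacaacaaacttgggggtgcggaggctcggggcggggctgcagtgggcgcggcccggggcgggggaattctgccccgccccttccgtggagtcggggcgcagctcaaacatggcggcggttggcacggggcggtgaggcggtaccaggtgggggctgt
Cyp51: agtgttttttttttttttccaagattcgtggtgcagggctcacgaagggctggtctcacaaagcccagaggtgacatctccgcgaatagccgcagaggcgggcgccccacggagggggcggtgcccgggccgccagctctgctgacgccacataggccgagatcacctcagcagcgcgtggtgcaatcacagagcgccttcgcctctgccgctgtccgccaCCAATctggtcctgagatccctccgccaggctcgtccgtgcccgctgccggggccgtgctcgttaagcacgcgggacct

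As a share of the library, RNA of 7 of the 8 genes was higher in cumulus cells than in oocytes, and that of Hmgcs1 was lower. Levels here are such shares and not amounts of RNA per cell. The fitted differences and the CPM of single genes below were in addition rescaled by TMM. Between genes, levels are compared as RPKM, which is scaled by gene length and by library size. Hmgcs1 had the highest median RPKM of the 8 genes in all 9 conditions of both cell types, at 84.8 to 97.5 in oocytes and 47.5 to 78.9 in cumulus cells. In oocytes a wide step followed, since Dhcr7, Mvd and Sqle had medians of 4.72 to 6.89, 3.26 to 5.63 and 3.70 to 5.31 RPKM, and Fdps, Srebf2 and Lss 1.62 to 3.48, 1.61 to 3.78 and 1.36 to 2.07 RPKM. Cyp51 was lowest in oocytes in all 9 conditions, at a median of 0.59 to 1.19 RPKM. By the mean, Lss was lower than Cyp51 in Old. In cumulus cells Sqle was second by median in each condition, at 26.4 to 46.9 RPKM, though below Cyp51 by mean in 2moNoH. Cyp51 (21 to 38.4 RPKM), Srebf2 (20.7 to 35.2 RPKM) and Fdps (17.1 to 32.9 RPKM) changed places in the order from condition to condition, and their library ranges overlapped. Dhcr7 (9.89 to 23.2 RPKM) and Mvd (8.80 to 22.1 RPKM) came below them, and Lss was lowest in each condition at 4.97 to 10.9 RPKM.

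**Figure D1:**
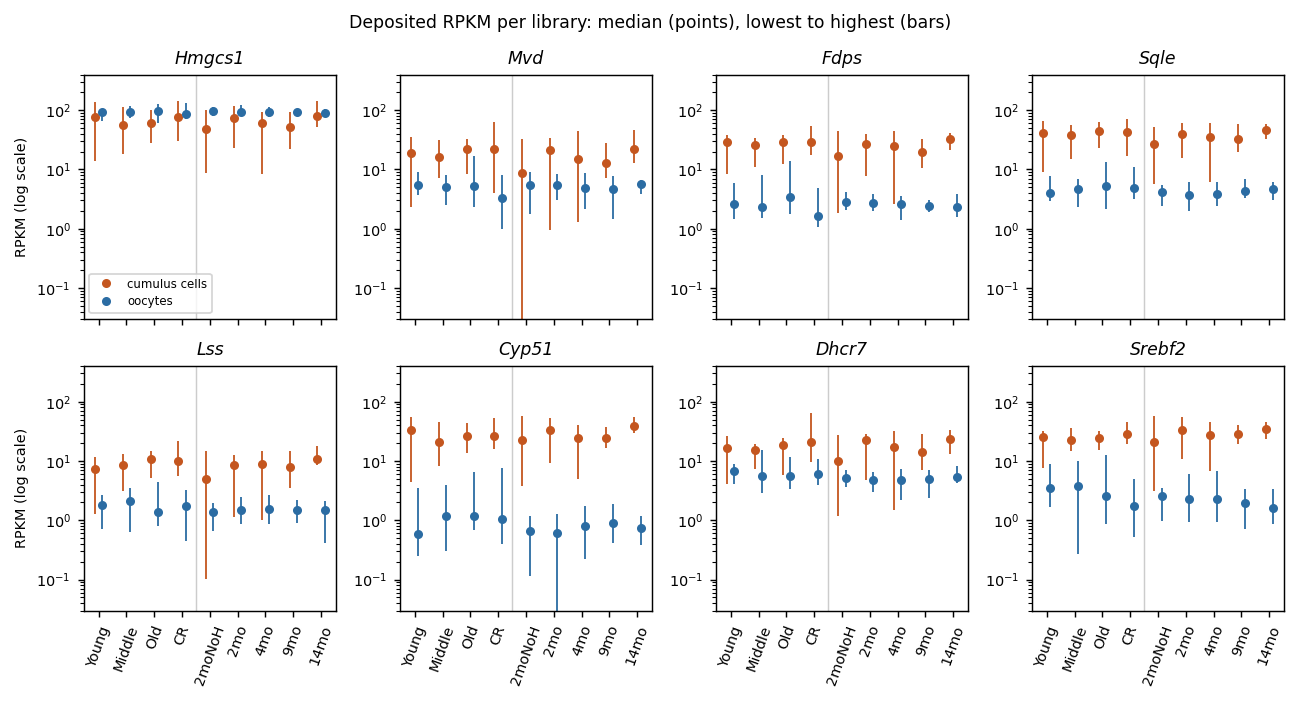
Each panel plots 1 gene as RPKM on a log axis for the 9 conditions, with points for the median library, bars from the lowest to the highest library, orange for cumulus cells and blue for oocytes. Hmgcs1 has medians of 84.8 to 97.5 in oocytes and of 47.5 to 78.9 in cumulus cells, whereas the orange medians of the other 7 genes lie above the blue ones. A bar that reaches the bottom edge includes a library at 0.

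The contrast was sharpest for Cyp51. In the 24 oocyte libraries at 2mo it ran from 0 to 1.28 RPKM around a median of 0.61, and in the 24 cumulus libraries from 9.18 to 54.0 RPKM around 33.4, so the ranges did not overlap. Hmgcs1 ran from 82.1 to 122 RPKM around 94.1 in the same oocytes and from 22.9 to 118 around 72.8 in cumulus cells, with wide overlap.

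Cell types were compared with edgeR on TMM-scaled counts summed per mouse label. By this test at 2mo, cumulus cells minus oocytes gave a log2 difference of 5.19 ± 0.18 (SE, 5 mice, adjusted p = 2.19e-15) for Cyp51, 3.33 ± 0.22 for Srebf2, 2.88 ± 0.12 for Sqle, 2.81 ± 0.16 for Fdps, 1.99 ± 0.15 for Lss, 1.62 ± 0.13 for Dhcr7 and 1.32 ± 0.19 for Mvd. Hmgcs1 stood at -0.91 ± 0.10 (adjusted p = 1.08e-07). Over the 9 conditions the difference of Cyp51 was 3.23 to 5.42 on the log2 scale, or 9.36-fold to 42.9-fold. Srebf2 was 3.82-fold to 13.8-fold higher in cumulus cells, Fdps 4.06-fold to 10.3-fold, Sqle 4.4-fold to 7.36-fold, Lss 2.49-fold to 6.17-fold and Dhcr7 1.56-fold to 3.27-fold, in 9 of 9 conditions each. The call of Dhcr7 in Middle was lost when the left-out complex was kept (log2 0.53, adjusted p = 0.0532), without Middle1 (0.36) or Middle2 (0.62), and that in 2moNoH on plate B2 alone (0.13). Mvd was higher by 0.52 to 2.23 on the log2 scale and passed the test in 8 of 9 conditions (adjusted p = 0.0698 in 2moNoH). Hmgcs1 was lower in cumulus cells in 9 of 9 conditions, with oocytes 1.5-fold to 2.92-fold higher.

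Most genes differed between these cell types. The share of all tested genes called in either direction was 72.7% in Young, 72.1% in Middle, 69.1% in Old, 75.1% in CR, 81.3% at 2mo, 84.8% at 4mo, 80.3% at 9mo, 80.2% at 14mo and 83.6% in 2moNoH, and 8 of 8 members (7 of 8 in 2moNoH) stood against that background. With the mouse label as a block, Hmgcs1 and Dhcr7 missed the threshold in Young (adjusted p = 0.0808 and 0.0574). Scaling by total counts alone shifted the median of all genes by 0.399 to 0.847 on the log2 scale between the cell types. Hmgcs1 then still had a negative difference in 9 conditions (-1.05 to -0.03) but was called in 6, and the other 7 genes were called higher in cumulus cells in all 9.

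Oocyte libraries held some counts of the cumulus markers, and of the 8 genes Cyp51 had the lowest oocyte level relative to cumulus cells. The median oocyte RPKM of Cyp51 was 1.78% to 5.52% of the median cumulus RPKM. The summed cumulus markers of an oocyte library, as a percent of the median cumulus library, had medians of 0.928% to 3.88% over the conditions, reaching 17.9% in a library of the Old group. The percent of Cyp51 was above that median in 9 of 9 conditions and above the highest library in 4. For Fdps (5.60% to 16.2%) and Sqle (9.34% to 15.6%) it was above the highest library in 5 conditions, for Srebf2 (4.58% to 16.6%) in 7 and for Lss (12.9% to 27.3%) in 8. Mvd (14.8% to 63.2%), Dhcr7 (20.8% to 51.4%) and Hmgcs1 (111% to 205%) were above it in all 9. Whether these marker counts were carried cumulus RNA or the oocyte's own was not tested, nor was the part of any carried RNA in the oocyte levels.

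In the same comparison 28 of 35 other genes of the pathway were called at 2mo (80.0%), against 81.3% of all genes, so the share itself was near the background. The CPM that follow for 2mo were scaled over both cell types together, as in the test. Of 14 other synthesis enzymes, 9 were higher and 2 lower in cumulus cells at 2mo. The higher genes included the mevalonate kinases Mvk (log2 5.59) and Pmvk (4.86) and the methyl oxidase Msmo1 (3.18), each of them higher in 9 of 9 conditions. The 2 lower genes were named after their values were seen. Fdft1, the squalene synthase, was lower by 2.24 to 3.12 on the log2 scale in 9 of 9 conditions. Lbr, a sterol reductase of the inner nuclear membrane, was lower by 2.65 to 3.09. At 2mo Fdft1 was at 546 ± 23.02 CPM (SD, n = 5 mice) in oocytes and 112 ± 20.3 CPM in cumulus cells. The genes on either side of it in the pathway, Fdps and Sqle, had the opposite difference.

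Among 8 genes that control SREBP and its counterpart LXR, 2 were higher in cumulus cells at 2mo, the protease gene Mbtps1 (log2 2.25) and Insig2 (1.78), and 4 were lower, Insig1 (-1.57), Scap (-1.24), Nr1h2 (-1.02) and Mbtps2 (-0.90). All 6 are named because they are the whole count. Each was called in the same direction in 9 of 9 conditions. Srebf2 itself was thus high where Scap was low.

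Of 13 genes of uptake, transport and storage, 9 were higher and 2 lower in cumulus cells at 2mo. Abca1, the exporter of cholesterol, was among the higher genes, with a log2 difference of 5.92. The lysosomal lipase Lipa was at 8.52 ± 2.68 CPM (SD, n = 5 mice) in cumulus cells and at 0 in the median oocyte mouse sum. The lysosomal exporter Npc1 was lower in cumulus cells, at 65.9 ± 9.76 CPM against 668 ± 61.1 CPM. Abcg1, another exporter, was at 110 ± 17.2 CPM in oocytes and had no count in any of the 5 cumulus mouse sums at 2mo.

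Within cumulus cells 7 of the 8 genes varied more than most genes from complex to complex of 1 mouse in both sets, and the 8 varied together. CPM from here on were scaled within a cell type. Over the 128 cumulus libraries of the second set, the value at the 90th percentile was 10.4 times that at the 10th for Mvd, 7.27 times for Lss and 5.31 times for Hmgcs1, and Srebf2 had the lowest ratio, 3.52. In the 127 oocyte libraries Hmgcs1 had a ratio of 1.28. The SD of log2 CPM among cumulus libraries of the same mouse was 1.07 for Mvd, 0.944 for Lss, 0.836 for Hmgcs1, 0.816 for Fdps, 0.798 for Dhcr7, 0.777 for Cyp51, 0.748 for Sqle and 0.516 for Srebf2, against a median of 0.412 over 9699 genes. Except for Srebf2, at least 91.5% of those genes varied less than each member. In the first set the SDs ran from 0.358 (Srebf2) to 0.776 (Mvd), against a median of 0.365 over 9829 genes. There 48.3% of genes varied less than Srebf2 and 75.6% (Fdps) to 93.4% (Mvd) less than the other members. In oocytes of the second set the SD of Hmgcs1 was 0.13 against a median of 0.226 over 8787 genes, and 7.81% of genes varied less. Hmgcs1 had a mean of 431 CPM in these oocytes, against 44.4 CPM for the median gene, and the part of level in its SD was not tested. The other 5 members above 10 CPM, all with a mean of 11.05 to 29.5 CPM, had oocyte SDs of 0.257 (Fdps) to 0.480 (Srebf2), and 62.0% to 97.4% of genes varied less than they did.

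Sqle shows the spread. It was below 100 CPM, a limit chosen after the values were seen, in 25 of 199 cumulus libraries. Of these, 14 were among the 32 libraries of 2moNoH, from 7 of its 8 mice, and 7 among the 40 of 4mo, from 4 of its 8 mice. At 2mo it was 1 of 24 libraries, in Young, Middle and CR 1 library each, and in Old, 9mo and 14mo none. The lowest cumulus library of 2moNoH held 33 CPM and the highest 300 CPM. All 200 oocyte libraries lay between 10.1 and 68.7 CPM. With both cell types scaled together, 10 of 128 cumulus libraries of the second set and 2 of 71 of the first lay at or below the highest oocyte library of their set.

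**Figure D2:**
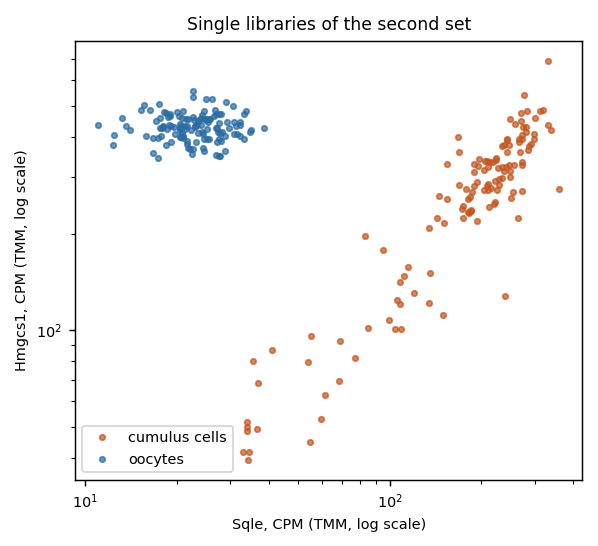
Each point is 1 library of the second set, with Sqle on the horizontal axis and Hmgcs1 on the vertical axis, both in CPM (scaled within each cell type) on log axes. Orange cumulus libraries lie along a rising band that reaches down to 33 CPM of Sqle, whereas blue oocyte libraries form a compact cloud with Hmgcs1 between 344 and 556 CPM.

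Over these cumulus libraries, after the mean of each mouse was taken off, the 28 pairs of members had Pearson correlations of 0.763 to 0.948 (median 0.865). In the first set, with 70 libraries, they ran from 0.690 to 0.937 (median 0.788). Libraries share depth and the make-up of the pool, and the mean score of the members had a correlation of -0.07 with depth and of 0.677 with the summed cumulus markers in the second set. In oocytes of the second set the 15 pairs of the 6 members above 10 CPM had a median of 0.117. In the first set, with 72 oocyte libraries, they ran from -0.449 to 0.504 (median 0.238). The oocyte score had a correlation of -0.09 with the summed cumulus markers in the second set and of 0.507 in the first. These are descriptions and carry no test.

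Over the 30 mice of the second set, with condition means taken off, the pairs had correlations of 0.609 to 0.948 in cumulus cells (median 0.832), Lss with Sqle being the highest and Hmgcs1 with Srebf2 the lowest. Without any single mouse the lowest pair was 0.517. On plate B1 alone (16 mice) the median was 0.608 with 17 of 28 pairs above 0.5, on plate B2 (14 mice) 0.843 with 27, and over the 11 mouse labels of the first set 0.720 with 24. The 2 labels of Young mirror each other after centring, as do the 2 of Old, so these 11 are not 11 independent values. In oocytes the 15 pairs ran from -0.26 to 0.29 over the 30 mice, with none above 0.5, and from -0.76 to 0.94 over the 11 labels of the first set, with 6 above 0.5. The score of the members had a correlation of 0.546 with the cumulus markers over the mice, of -0.52 with the percent of mitochondrial counts and of 0.116 with depth. The part of these measures in the correlations was not tested.

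**Figure D3:**
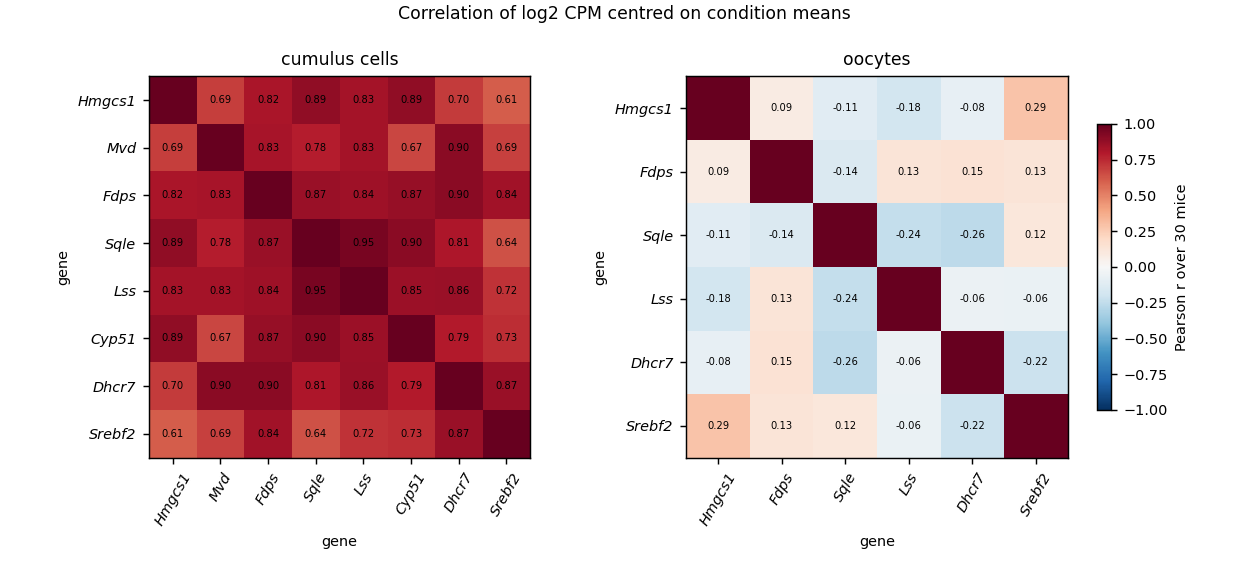
Each cell gives the Pearson correlation of a pair of genes over the 30 mice of the second set, as log2 CPM with condition means taken off, on a colour scale from -1 to 1. All 28 cumulus pairs on the left lie between 0.609 and 0.948, and the 15 oocyte pairs on the right between -0.26 and 0.29.

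Of the 14 other synthesis enzymes 14 had a correlation above 0.5 with the members in cumulus cells, as did 3 of 7 control genes and 3 of 11 genes of uptake, transport and storage with a mean of at least 10 CPM. The share over all such genes was 12.5%. By correlation with the mean score of the 8 members over these 30 mice, the 5 genes most like them among 9685 included Gm43738, which overlaps Fdps, (r = 0.929, rho = 0.941, r = 0.913 without the 2 mice farthest from the median score) and Tle2, a corepressor gene, at r = 0.929. Gm43738 lies on the strand of Fdps and can share its reads, and Fdps is in the score of both cell types. The likeness of Gm43738 is thus not independent of the score, and the part of shared reads was not tested. Among the synthesis enzymes the lowest value was that of Lbr (0.600), and Msmo1 was at 0.915 and Fdft1 at 0.882. The control genes above 0.5 were Insig1 (0.823), Srebf1 (0.788) and Scap (0.692), and Insig2 was at -0.52. Of the genes of uptake, transport and storage, Scarb1 was at 0.834, Stard4 at 0.797 and the exporter Abca1 at -0.76 (rank 9629). In oocytes the first 5 genes were Smc3 (0.669), Mlx (0.654), Fam241b (0.636), Lrrc8b (0.631) and Gm43738 (0.619), and 0.376% of genes were above 0.5, among them 0 of the 21 genes of the lists. Over 127 complexes with both libraries, the cumulus score had correlations of -0.07 to 0.09 with the oocyte levels of single members.

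The comparison of 2mo with 2moNoH asks what hormonal stimulation does to the complexes of young mice. In cumulus cells all 8 members had higher means after hyperovulation, and none passed the test over mice. Sqle had 190, 216, 234, 237 and 262 CPM in the 5 mice of 2mo. The 8 mice of 2moNoH ranged from 82.5 to 204 CPM with a median of 141, so 1 of them overlapped the stimulated mice. The log2 difference, 2mo minus 2moNoH, was 0.68 ± 0.19 for Sqle (SE, adjusted p = 0.0987), the nearest to the threshold. Dhcr7 had 90.2, 116, 126, 134 and 142 CPM at 2mo and 28.5 to 127 CPM in 2moNoH (median 69.7). Its difference was 0.75 ± 0.27 (adjusted p = 0.224). Hmgcs1 stood between 298 and 351 CPM at 2mo and between 109 and 335 CPM in 2moNoH, a difference of 0.63 ± 0.22. The 8 unstimulated mice spread more widely than the 5 stimulated mice for these 3 genes. The other differences were 0.78 for Mvd, 0.66 for Fdps, 0.54 for Lss, 0.38 for Srebf2 and 0.35 for Cyp51, and the groups overlapped for each of the 8 genes.

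The median difference of the 8 members was 0.643 against -0.03 over all genes, and 6 of 8 had an unadjusted p under 0.05 against 13.2% of all genes. The members varied together in cumulus cells (median pair correlation 0.832 over mice). Counts of members with 1 sign or a low p are therefore not counts of independent results, here and in the contrasts below. Of all 25828 genes tested 0.863% were called. DESeq2 on the same sums called 1 member (Sqle). With libraries as units, as the study tested them, 5 members were called, Dhcr7, Sqle, Fdps, Mvd and Hmgcs1, against 12.1% of all genes, but libraries of 1 mouse are not independent. With the plate in the model 3 members passed (Sqle, Dhcr7 and Fdps). Within plate B1 alone the median difference was 0.349 and within B2 alone 0.966, positive for 8 of 8 members on both, with none called. Without the mouse 2moNoH6, Sqle was called (adjusted p = 0.0372). The cumulus markers moved with the contrast. Their summed level had a median of 9333 CPM over the 24 libraries of 2mo (4243 to 12520) and of 5737 CPM over the 32 of 2moNoH (2251 to 11613), and its part in the difference was not tested.

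Of the 14 other synthesis enzymes, 14 had higher means after hyperovulation, 12 with an unadjusted p under 0.05. Fdft1 passed the test (log2 0.79 ± 0.17, adjusted p = 0.0327). Scaled within cumulus cells, it was at 134 ± 24.2 CPM in 2mo and 76.2 ± 18.8 CPM in 2moNoH (SD, n = 5 and 8 mice). Among the control genes 7 of 8 and among those of uptake, transport and storage 8 of 12 had positive differences, and none was called.

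In oocytes of the same complexes the groups overlapped. Sqle lay at 20.2 to 23.7 CPM at 2mo and 19.2 to 25.9 CPM in 2moNoH, and Hmgcs1 at 423 to 454 and 418 to 486 CPM. The differences of the 8 members were between -0.13 and 0.20, with 95% intervals inside -0.45 to 0.39, and neither edgeR, DESeq2 nor the fit over libraries called any. None had an unadjusted p under 0.05, and 0% of all genes were called. The difference between the cell types in this contrast was positive for 8 of 8 members (median 0.639, all genes -0.05), and 5 had an unadjusted p under 0.05. Sqle was nearest, at 0.67 ± 0.22 (adjusted p = 0.293). No member was called, against 0.148% of all genes, DESeq2 called none, and the fit over libraries called 1 (Dhcr7). Within plate B1 alone 7 of 8 were positive and within B2 alone 8.

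**Figure D4:**
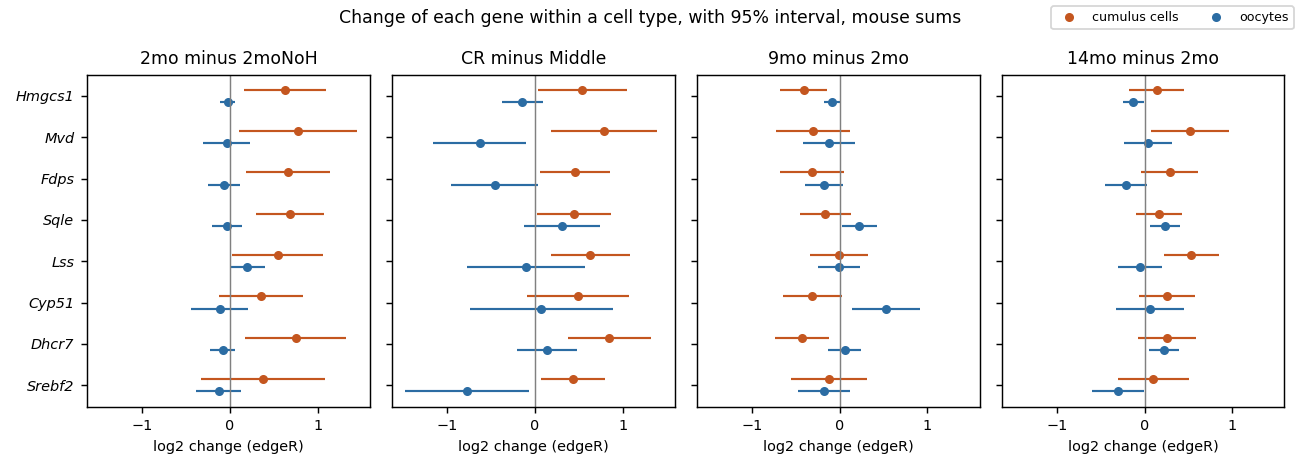
Points are log2 differences fitted by edgeR on mouse sums for each gene, with 95% intervals as lines, in cumulus cells (orange) and oocytes (blue), for 4 contrasts. In cumulus cells all 8 points are positive for 2mo minus 2moNoH, for CR minus Middle and for 14mo minus 2mo, and with TMM scaling all 8 are negative for 9mo minus 2mo (Lss turns positive by DESeq2 and RLE), although no member passed the adjusted test in any of them.

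Calorie restriction was compared with AL feeding at 9 months. In cumulus cells the means of all 8 members were higher in CR, and none passed the test. Dhcr7 had 76.8, 80.0, 86.7 and 89.8 CPM in the 4 Middle mice and 96.9, 153 and 207 CPM in the 3 CR mice, groups that did not overlap. Its log2 difference, CR minus Middle, was 0.85 ± 0.22 (adjusted p = 0.349), the largest of the 8. Mvd had 29.7, 30.6, 33.7 and 34.6 CPM in Middle and 29.1, 66.1 and 73.1 CPM in CR (0.79 ± 0.27). For Mvd, 2 CR mice lay above all Middle mice and the lowest CR mouse lay below them.

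The other 6 members had differences of 0.43 to 0.63 with adjusted p of 0.470 to 0.681. The median over members was 0.515 against 0.04 over all genes. An unadjusted p under 0.05 was reached by 7 of 8 members and by 8% of all genes, while 0% of the 26487 genes were called by edgeR. As the members varied together, the 7 are not independent results. DESeq2 called no member either, and the fit over libraries called 2 (Dhcr7 and Srebf2) against 3.45% of all genes. CR libraries were deeper, with a median total of 2019007 counts in cumulus cells against 1091806 in Middle, and the part of depth was not tested. The summed theca and stroma markers were also higher, with a median of 16.2 CPM in CR (1.56 to 51.2) and 5.62 CPM in Middle (0 to 137), and their part was not tested. Of the 14 other synthesis enzymes 13 had positive differences, and none was called.

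In CR oocytes the pathway did not move in 1 direction. Mvd had 7.4, 8.3, 8.9 and 14.1 CPM in Middle and 5.4, 6.7 and 7.4 CPM in CR, a difference of -0.63 ± 0.24 (adjusted p = 0.148). Srebf2 had 7.9, 14.4, 24.8 and 26.3 CPM in Middle and 10.4, 10.4 and 14.1 CPM in CR (-0.78 ± 0.32, adjusted p = 0.175). The other differences lay between -0.46 (Fdps) and 0.31 (Sqle). No member was called, although 7.61% of all 27072 genes were, 2 members had an unadjusted p under 0.05, and DESeq2 called none. The fit over libraries called Mvd, Fdps and Srebf2 lower in CR, against 28.2% of all genes. Srebf2 was also called without Middle3 (adjusted p = 0.0232) and without the oocyte libraries whose cumulus markers exceeded 5% of a cumulus library (adjusted p = 0.0499).

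In CR oocytes 2 of 14 other synthesis enzymes were called higher, and 1 of 8 control genes higher and 1 lower. Of 13 genes of uptake, transport and storage 2 were called higher. Together these were 6 of 35 (17.1%), against the 7.61% of all genes given above. That background includes many genes with few counts. With a stricter filter on low counts (filterByExpr), the highest share of all genes called in any of the 7 oocyte contrasts was 15.99%. The 17.1% is thus not shown to exceed the share among genes with more counts. The sterol carrier Stard4 stood at 25.6 to 35.7 CPM in Middle and 64.2 to 67.8 CPM in CR (log2 difference 1.06), and the lipoprotein receptor Vldlr at 1.4 to 7.2 and 11.7 to 20.6 CPM (1.70). Hsd17b7 (0.85) and Mbtps2 (0.56) also rose, and Nr1h2, which encodes LXR beta, fell by 0.62. For Stard4, Vldlr, Hsd17b7 and Mbtps2 the CR mice lay above all Middle mice, and for Nr1h2 below them. CR oocyte libraries were also deeper, with totals of 2752043 to 4536690 counts against 1903858 to 2624876 in Middle, without overlap. The part of depth in the differences of CR oocytes was not tested.

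The difference between the cell types in the CR contrast was 1.11 ± 0.46 for Mvd (adjusted p = 0.411) and 0.95 ± 0.46 for Srebf2 (adjusted p = 0.496), and positive for 7 of 8 members, Sqle (-0.14) being the exception. The median over members was 0.430 against -0.20 over all genes. By edgeR none was called, 1 had an unadjusted p under 0.05, and 0.0921% of all genes were called. DESeq2 called Mvd and the fit over libraries 4 members. Other scalings moved the median of all genes in this contrast by 0.276 (RLE) to 0.298 (total counts), and the median over members was then 0.704 and 0.724.

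Over the ages the differences in cumulus cells changed sign. Within a set, each contrast shares its youngest group. Against 2mo, all 8 differences were negative at 4mo (-0.48 to -0.17), all 8 negative at 9mo (-0.43 to -0.01) and all 8 positive at 14mo (0.10 to 0.53). Hmgcs1 went through means of 333 ± 24.2, 240 ± 61.9, 246 ± 34.9 and 357 ± 92.4 CPM at 2, 4, 9 and 14 months (SD, n = 5, 8, 4 and 5 mice), and the ranges of 2mo and 9mo did not overlap while the others did. Lss at 14mo had 106, 118, 128, 134 and 161 CPM against 64.5, 92.4, 93.5, 103 and 104 CPM at 2mo, without overlap (log2 0.53 ± 0.15, adjusted p = 0.247). Mvd had a difference of 0.51 ± 0.21 at the same age. By plate, 7 of 8 differences at 4mo were negative on B1 and 8 on B2, 8 and 4 of 8 at 9mo were negative, and 6 and 8 of 8 at 14mo were positive. Scaled by DESeq2 or RLE, Lss at 9mo turned to 0.004. No member was called at any age. The shares of all genes called were 0%, 0.0081% and 0.159% at 4, 9 and 14 months, and 3, 2 and 2 members had an unadjusted p under 0.05. DESeq2 called none, and the fit over libraries called Lss at 14mo.

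**Figure D5:**
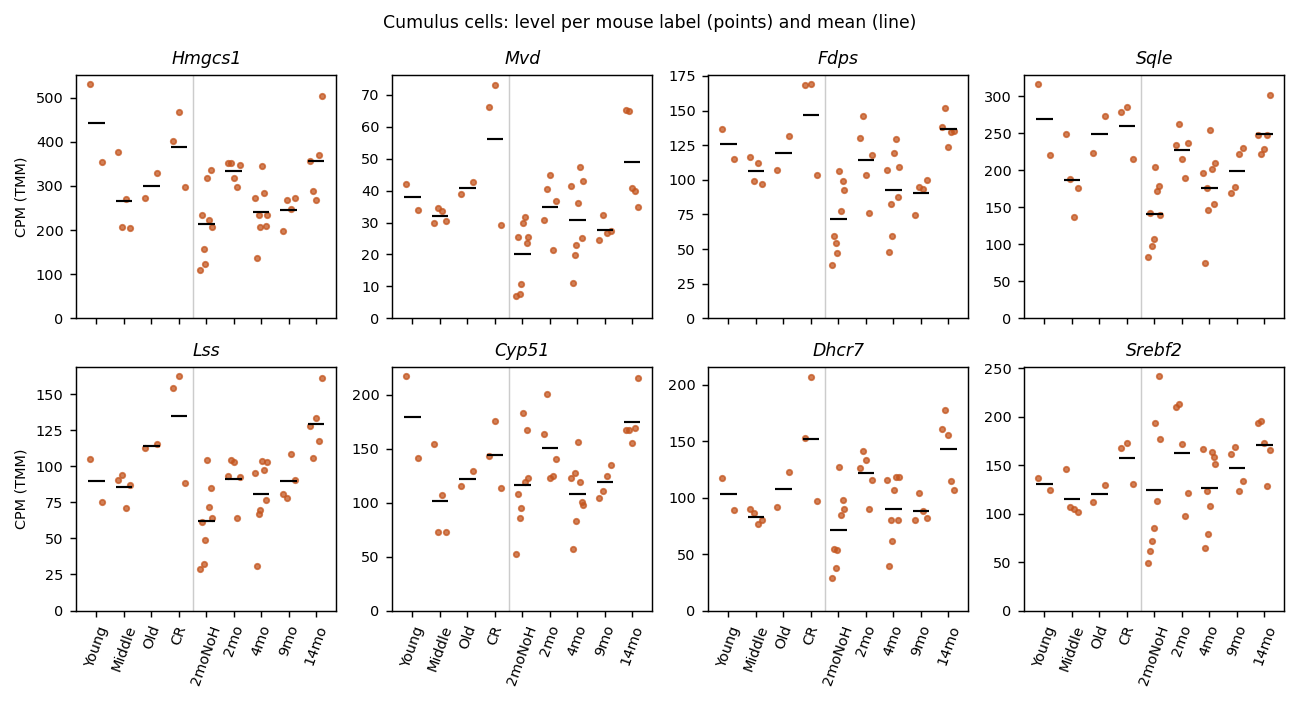
Each point is the CPM of 1 mouse label in cumulus cells (TMM-scaled sums) and each line the mean of its group, with 1 panel per gene and the 9 conditions on the horizontal axis, the first set left of the grey line. In 2moNoH the means lie below those of 2mo in all 8 panels and the points spread widely, for example from 28.5 to 127 CPM for Dhcr7.

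In the first set, Hmgcs1 had 353 and 531 CPM in the 2 Young labels, 206 to 378 CPM in the 4 Middle mice and 272 and 330 CPM in the 2 Old labels. Cyp51 followed the same order, with 141 and 218 CPM in Young, 73.0 to 154 CPM in Middle, and 115 and 129 CPM in Old. Old minus Young was -0.56 ± 0.18 for Hmgcs1 (adjusted p = 0.383) and -0.55 ± 0.19 for Cyp51 (adjusted p = 0.401). Both were called without the label Young2 (adjusted p = 0.0315 and 0.0233), where the lone Young label is assumed to vary like the others, and with no filter on low counts. The other 6 members lay between -0.12 and 0.35. For Middle minus Young the differences of all 8 were negative, and Lss turned to 0.03 when scaled by total counts. No member was called in either contrast, with 2 members under an unadjusted p of 0.05 in each and none called by DESeq2, and the shares of all genes called were 0% for Middle and 0.431% for Old.

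In oocytes, Hmgcs1 had means of 440 ± 12.1, 424 ± 19.5, 413 ± 9.01 and 403 ± 40.1 CPM at 2, 4, 9 and 14 months. Cyp51, at 2.3 to 3.5 CPM in the 5 mice of 2mo, had differences of 0.49 at 4mo, 0.53 at 9mo and 0.06 at 14mo. No member was called in oocytes at 4, 9 or 14 months, in Middle or in Old by edgeR or DESeq2, or over libraries. The shares of all genes called were 0%, 0.0784% and 0.177% in the second set and 0% in both contrasts of the first, and 1, 3, 4, 0 and 0 members had an unadjusted p under 0.05. The difference between the cell types for Old minus Young was largest for Cyp51, at -1.18 ± 0.43 (adjusted p = 0.543). It was called without Old3 (-1.51) and over libraries. The cumulus markers in oocyte libraries moved with this contrast, with a median of 3.88% of a cumulus library in Old oocytes and 1.17% in Young oocytes. Without oocyte libraries above 5% the difference was -1.40 (adjusted p = 0.119). Over mouse sums neither edgeR nor DESeq2 called a member, 1 had an unadjusted p under 0.05, and 0% of all genes were called. For 14mo minus 2mo, 7 of 8 members had a positive difference between the cell types. None was called by edgeR, by DESeq2 or over libraries, against 0.0553% of all genes, and 2 had an unadjusted p under 0.05.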

How the data were processed

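RamDA-seq libraries of single oocytes and of the pooled cumulus cells around them were analysed. Reads were trimmed by the authors, aligned to GRCm38 with HISAT2 2.0.5 and assigned to GENCODE genes with featureCounts 1.5.1, with reads of several places divided among them, and the authors deposited the resulting expected count of each gene and library. The authors also deposited RPKM values calculated from these counts and gene lengths. Recalculated medians of the 8 genes equalled the deposited ones in 8 conditions, and in CR the deposited medians were 0.925 to 1.10 times the recalculated ones. Fractions were present among the nonzero expected counts (36.8% of those of the first set, 35.1% of those of the second), so sums were rounded before testing.

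Counts were summed per mouse label and cell type, because several libraries came from 1 mouse and libraries of 1 mouse are not independent. The study tested single libraries, and that fit is an alternative here. Sums were tested with edgeR 4.0.16 in R 4.3.3 (TMM scaling, quasi-likelihood test, Benjamini-Hochberg adjustment over all genes tested, threshold 0.05) using genes that were counted in 5 or more libraries of the contrast. Adjusted p-values in the text are from this two-sided test unless a tool is named, and the scripts were tested on simulated data. CPM are TMM-scaled within a set and cell type, except where both cell types are said to be scaled together, so their ratio between cell types differs from the fitted one. DESeq2 1.42.0 was an alternative, as were RLE and total-count scaling, other filters, the plate and each mouse label left out. Counts carry no molecular identifiers, and errors cover counting and the spread between mouse labels.

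Oocyte and cumulus sums of the same mouse come from the same animal. The correlation of their deviations from the group means was -0.06 to 0.10 over the 11 labels of the first set and -0.10 to 0.26 over the 30 mice of the second, and the fit with the mouse label as a block was an alternative. Young and Old have 2 labels each, whose deviations mirror each other, so both labels of such a group gave the same value.

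The 8 genes, the other lists and the tests were chosen with earlier results of these data known. In each comparison the text names the 8 members and, of each other list, at most the 4 called genes with the largest log2 difference, besides genes that make up a count of 5 or fewer, and the 5 genes most like the members. Some genes that this rule names are not reported here. Likeness is the correlation with the mean z-score of the members over mice, for genes with a mean of at least 10 CPM. A prior count of 1 was used for log2 CPM. Symbols and coordinates came from the GRCm38 annotation supplied with the reference, and promoter windows from a RefSeq table for GRCm38.p6.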

Additional observations from a re-analysis of the deposited data

Results flagged for a closer look

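In groups of 4 to 10 mouse labels, 5 of the 96 tested combinations of gene, cell type and condition held a mouse whose gap to its nearest neighbour exceeded Dixon's 95% limit, and chance gives about 1 in 20 (4.8 expected). All 5 were the highest mouse of their group. In cumulus cells, Cyp51 was at 216 CPM in 1 mouse of 14mo (next 169 CPM) and Srebf2 at 146 CPM in Middle1 (next 107 CPM). In oocytes, Srebf2 was at 14.9 CPM in 1 mouse of 2mo (next 10.9 CPM), Hmgcs1 at 426 CPM in 1 mouse of 9mo (next 410 CPM) and Mvd at 10.7 CPM in another mouse of 9mo (next 8.60 CPM).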

How the results depend on the processing

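Of 432 counts of members called under alternatives, 415 were unchanged or within 1.5 times the reported count. Of 3530 single values, 41 gained and 11 lost the call, and no called value reversed its direction. Another 3 values, median correlations between members, moved. They were 0.608 on plate B1 alone and 0.720 in the first set in cumulus cells, and 0.116 on plate B2 alone in oocytes. The other 3475 were counted as unchanged. Uncalled values among these could change sign, as Lss did for Young against Middle in cumulus cells with total-count scaling. With libraries as units, 5 members were called for hyperovulation in cumulus cells, 2 for CR in cumulus cells, 3 for CR in oocytes, 1 for 14mo in cumulus cells, and 4, 1 and 1 in the differences between cell types for CR, hyperovulation and Old. DESeq2 called 1 member for hyperovulation in cumulus cells and 1 for the CR difference between cell types. Adding the plate called 3 for hyperovulation. With no filter on low counts 2 members, Hmgcs1 and Cyp51, were called for Young against Middle and 2 for Young against Old in cumulus cells. Without oocyte libraries above 5% cumulus markers 1 was called for CR in oocytes. Leaving out a mouse label in turn, the count ran from 0 to 2 for Young against Old in cumulus cells (2 without Young2), and from 0 to 1 for hyperovulation in cumulus cells (without 2moNoH6), CR in oocytes (without Middle3) and the Old difference between cell types (without Old3). The cause of these changes was not tested.

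With the mouse label as a replicate block, 6 members were called between cell types in Young against 8 without it, and the block changed no other count between cell types or in their differences. Middle and CR mice share label numbers only. Mice of the same number had correlations of -0.19 to -0.02 in cumulus cells and -0.20 to 0.12 in oocytes, and a block on that number called 0 members in both. Leaving out a label of Young or Old was not run between cell types, because each has 2 labels. Between cell types, Dhcr7 in Middle lost its call with all deposited libraries (log2 0.53), without Middle1 (0.36) or Middle2 (0.62), Hmgcs1 in CR without CR2 (-0.57), Mvd at 4mo (0.56) and Dhcr7 in 2moNoH (0.13) on plate B2 alone, and Mvd in 2moNoH was called in 9 of its 18 alternatives.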
